A study of Mus musculus with 16 samples.

Results

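The genes described are Alas2, Hba-a1, Bpgm, Slc4a1 and Slc25a37, 5 erythroid and heme synthesis genes among 17097 genes covered by the array annotation. Every probe set annotated to them was taken, which gave 12 of 45037 probe sets: 3 each for Hba-a1, Bpgm and Slc25a37, 2 for Slc4a1 and 1 for Alas2. None of the 12 is annotated to a further gene. The genes were chosen from their log2 values in KO and WT arrays of this series, so their differences between genotypes and between tissues are a description and carry no test.

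RNA was measured on 16 Affymetrix mouse arrays from mice without NM1 (KO) and from wild-type mice (WT). Nuclear myosin 1, or NM1, is a motor protein encoded by the gene Myo1c and is known for its work with RNA polymerases in the nucleus. The groups were lungs and heart of the same 3 KO mice (1602, 1603 and 1586) and the same 3 WT mice (1592, 1624 and 1593), and skin fibroblasts of 2 KO (1584 and 1550) and 2 WT samples (1571 and 1623) with other mouse numbers. The sources used here do not give the removed part of Myo1c, the strain, age and sex of the mice, or whether organs were rinsed of blood.

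Red cells carry oxygen on hemoglobin, whose alpha chains are made from Hba-a1 and its near-identical copy Hba-a2. Heme, the iron ring that hemoglobin holds, is built in mitochondria and cytosol. Alas2 encodes the erythroid form of the first enzyme of that pathway, and Slc25a37 encodes mitoferrin 1, which brings iron into mitochondria. Slc4a1 encodes band 3, the anion exchanger of the red cell membrane, and Bpgm encodes the enzyme that makes 2,3-bisphosphoglycerate, a regulator of oxygen release. Young red cells keep such transcripts after losing the nucleus and bring them into the RNA of any organ that is taken with its blood. In whole-organ RNA, fewer cells of a type and less RNA per cell cannot be told apart.

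The promoters of 3 members (assembly GRCm38.p6) are shown, those for which a promoter sequence was at hand. Their bearing on the members' levels was not tested. Each line gives the 150 bases before the annotated gene start, read 5′ to 3′ on the plus strand, with matches to the GATA box (GATA or TATC) and the CACCC box (CACCC or GGGTG) in capitals.
Alas2: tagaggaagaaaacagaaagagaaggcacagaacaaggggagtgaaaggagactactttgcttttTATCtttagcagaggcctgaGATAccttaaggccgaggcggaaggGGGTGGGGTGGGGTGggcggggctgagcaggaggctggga
Hba-a1: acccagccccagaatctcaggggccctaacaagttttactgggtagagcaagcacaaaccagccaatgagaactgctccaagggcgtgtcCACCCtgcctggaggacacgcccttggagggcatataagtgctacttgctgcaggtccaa
Bpgm: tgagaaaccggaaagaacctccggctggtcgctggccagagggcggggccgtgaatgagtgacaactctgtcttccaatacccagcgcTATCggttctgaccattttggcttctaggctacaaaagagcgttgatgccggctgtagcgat
The Alas2 stretch lies at chrX:150547267-150547416, that of Hba-a1 at chr11:32283522-32283671 and that of Bpgm at chr6:34476206-34476355. GATA and CACCC boxes are the letters read by GATA1 and by KLF1, the main transcription factors of red cell precursors. The Alas2 stretch holds 2 GATA and 3 CACCC matches, the CACCC ones directly side by side on the minus strand. The Hba-a1 stretch holds 1 CACCC match, and the Bpgm stretch holds 1 GATA match. In the full 250 bases before the start, the counts of GATA and CACCC matches were 2 and 3 for Alas2, 1 and 2 for Hba-a1, and 2 and 0 for Bpgm. Such matches are common, since 53.6% of 32851 promoters hold a GATA match and 52.0% hold a CACCC match in the same 250 bases.

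The array medians lay between 3.65 and 3.93 log2. The upper quartile was 5.63 in the KO heart of mouse 1602 and 6.17 to 6.31 in the 5 other hearts, so heart values are also given without that array. The genotype labels were checked on the mean of 4 Myo1c probe sets, which was lower in every KO array than in every WT array of the same tissue (KO 6.31 to 7.09 and WT 7.55 to 8.35 in lungs, 5.92 to 6.00 and 6.60 to 6.83 in heart, 6.24 to 6.26 and 7.52 to 7.81 in fibroblasts). Tissue markers matched the labels, with Sftpc at 13.92 or above in lungs, Myl2 at 13.83 or above in heart and Col1a1 at 10.88 or above in fibroblasts. Of the members, Hba-a1 lay between 7.65 and 13.91 in the organ arrays, depending on the probe set, and between 2.73 and 4.26 in fibroblasts. Others had signal in fibroblasts, with Bpgm 1415865_PM_s_at at 6.25 to 7.67 and Slc25a37 1417750_PM_a_at at 6.45 to 6.95. These values do not check the label of the gene group, since they were among those that chose the members. Gata1, the regulator of red cell precursors, stayed between 2.75 and 3.06 in all 16 arrays, under the filter value of 3.79, which is the median of all values.

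Across the members, KO hearts held less of each of the 5 genes than WT hearts on at least 1 probe set, with log2 differences of -2.20 to -0.73 where the groups did not overlap, whereas KO and WT lungs of the same mice overlapped on all 12. In heart every KO array lay below every WT array on 9 of the 12 probe sets. Of Slc25a37 only 1417750_PM_a_at was among them, and of Slc4a1 only 1416464_PM_at, on which all KO hearts read under the filter value. Over all 22098 heart probe sets kept by the filter, 13.7% had every KO array below every WT array, and in lungs it was 6.46% of 23218. In lungs this held for 0 of the 12 member probe sets. The heart arrays as a whole also leaned down in KO, with a median difference of -0.16 over the kept probe sets and 72.2% of them below 0.

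**Figure D1:**
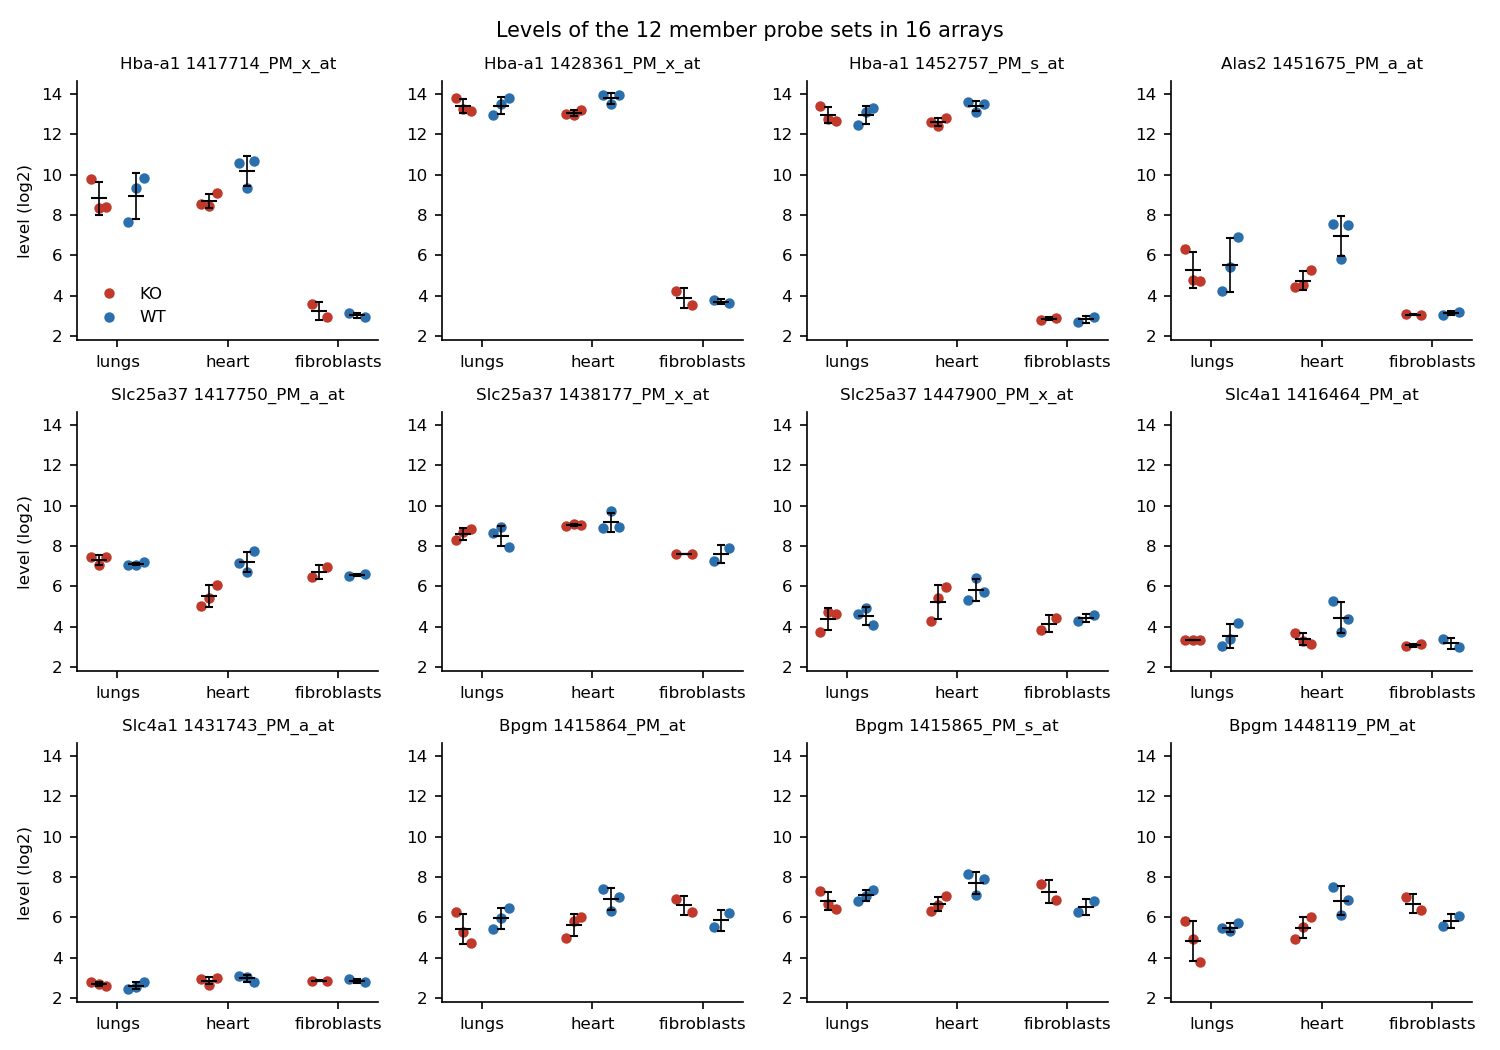
Log2 level of each of the 12 member probe sets (vertical axis) in lungs, heart and fibroblasts (horizontal axis), with KO in red and WT in blue; points are arrays, and black marks are group means ± SD (n = 3, or 2 for fibroblasts). Hba-a1 is high in organs and Alas2 lower, at 4.25 to 7.54. Both lie at or near the bottom of the scale in fibroblasts, and the WT hearts sit above the KO hearts on 9 panels.

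Hba-a1, the alpha globin gene, was read by 3 probe sets that differ in how close they come to the top of the scale, and probe sets with the suffix x or s can also match the near-identical Hba-a2, so their values belong to alpha globin as a whole. On 1417714_PM_x_at the hearts of KO mice 1602, 1603 and 1586 read 8.53, 8.46 and 9.06 log2, and those of WT mice 1592, 1624 and 1593 read 10.55, 9.31 and 10.66. The KO hearts lay close together and below all WT hearts, and WT mouse 1624 was the WT heart nearest to them. The difference was -1.49 (SE 0.53), a level 2.81-fold lower. On 1428361_PM_x_at the KO hearts read 12.98, 12.94 and 13.19 and the WT hearts 13.91, 13.46 and 13.91, a difference of -0.73 (SE 0.24). On 1452757_PM_s_at the KO hearts read 12.60, 12.40 and 12.78 and the WT hearts 13.56, 13.09 and 13.49, a difference of -0.78 (SE 0.23). All 3 probe sets put the 6 hearts in nearly the same order, with mouse 1624 lowest among the WT hearts on each.

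In lungs alpha globin did not separate the genotypes. On 1417714_PM_x_at the KO lungs read 9.77, 8.33 and 8.39 in mice 1602, 1603 and 1586, and the WT lungs read 7.65, 9.34 and 9.82 in mice 1592, 1624 and 1593. The lowest value of all 6 lungs came from a WT mouse, 1592, and KO mouse 1602 read nearly as high as the highest WT lungs. The differences on the 3 probe sets were -0.11 (SE 0.53), -0.04 (SE 0.24) and -0.01 (SE 0.23). In fibroblasts 1417714_PM_x_at read 3.59 and 2.96 in KO and 3.14 and 2.94 in WT, the range of genes without signal.

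Alas2, which encodes the enzyme that starts heme synthesis in red cell precursors, had the largest span of any member probe set within 1 tissue, 3.10 log2 over the 6 hearts. Its probe set 1451675_PM_a_at read 4.44, 4.52 and 5.28 log2 in the KO hearts of mice 1602, 1603 and 1586. The WT hearts of mice 1592, 1624 and 1593 read 7.54, 5.81 and 7.50. All KO hearts lay below all WT hearts, though the gap from KO mouse 1586 to WT mouse 1624 was small beside the range within WT. The means were 4.74 ± 0.47 (SD, n = 3) in KO and 6.95 ± 0.98 (SD, n = 3) in WT, a difference of -2.20 (SE 0.62), which is 4.61-fold lower. In lungs the KO arrays read 6.33, 4.79 and 4.75 and the WT arrays 4.25, 5.43 and 6.93, with means of 5.29 ± 0.90 (SD, n = 3) and 5.54 ± 1.35 (SD, n = 3). The lungs of WT mouse 1592 were the lowest and those of WT mouse 1593 the highest of the 6, so the genotypes overlapped fully, with a difference of -0.24 (SE 0.62). Fibroblasts read 3.09 and 3.06 in KO and 3.06 and 3.20 in WT, under the filter value.

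The KO heart difference of Alas2 was larger than that of alpha globin on a log scale. Alas2 minus Hba-a1 1417714_PM_x_at within each array was -4.09, -3.94 and -3.78 in KO hearts of mice 1602, 1603 and 1586, and -3.01, -3.50 and -3.16 in WT hearts of mice 1592, 1624 and 1593. The KO and WT hearts did not overlap in this within-array difference, which rose in the same order as Alas2 itself from heart to heart. Its non-overlap thus restates that of Alas2, and nothing is read from it. In lungs the within-array difference ran from -3.63 to -3.43 in KO and from -3.91 to -2.88 in WT, and the genotypes overlapped.

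Slc4a1, the band 3 gene, was close to the filter value in every group. On 1416464_PM_at the KO hearts read 3.72, 3.30 and 3.15 and the WT hearts 5.27, 3.76 and 4.37. The highest KO heart, mouse 1602, lay just under the lowest WT heart, mouse 1624, and the WT mean rested most on mouse 1592. The difference was -1.07 (SE 0.33), and -0.67 without WT mouse 1592. The KO lungs of all 3 mice held the identical value of 3.36723, for a reason the sources used here do not give. The WT lungs read 3.06, 3.41 and 4.20, and the probe set passed the filter in heart but not in lungs or fibroblasts. Among the hearts only WT mice 1592 and 1593 read above the filter value, so the probe set passed in heart through WT arrays. The other probe set, 1431743_PM_a_at, read 2.49 to 3.13 over all 16 arrays and so carried no signal above the filter value.

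Bpgm, the enzyme of 2,3-bisphosphoglycerate, had signal in all 3 tissues. On 1415865_PM_s_at, its brightest probe set, the KO hearts read 6.34, 6.61 and 7.04 and the WT hearts 8.14, 7.09 and 7.89, a difference of -1.04 (SE 0.31). All KO hearts lay below all WT hearts, but KO mouse 1586 and WT mouse 1624 were almost level. The other probe sets gave -1.30 (SE 0.42) on 1415864_PM_at and -1.34 (SE 0.45) on 1448119_PM_at. In lungs 1415865_PM_s_at read 7.30, 6.66 and 6.44 in KO and 6.84, 7.06 and 7.36 in WT, with overlap and a difference of -0.29 (SE 0.31). In fibroblasts the order of the genotypes turned round. On 1415865_PM_s_at the KO fibroblasts read 7.67 and 6.86 and the WT fibroblasts 6.25 and 6.80, on 1415864_PM_at 6.92 and 6.26 against 5.51 and 6.24, and on 1448119_PM_at 7.01 and 6.37 against 5.57 and 6.07. Both KO samples were above both WT samples on each probe set, on 1415864_PM_at and 1415865_PM_s_at by a narrow margin. Over all 21841 kept fibroblast probe sets, 19.5% had both KO arrays above both WT arrays.

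Slc25a37, the mitochondrial iron importer, gave different pictures on its 3 probe sets. On 1417750_PM_a_at the KO hearts read 5.04, 5.41 and 6.09 and the WT hearts 7.17, 6.72 and 7.73. Every KO heart read lower than every WT heart, and the highest KO heart was that of mouse 1586. The difference was -1.69 (SE 0.27), a level 3.24-fold lower. The KO lungs read 7.46, 7.04 and 7.44 and the WT lungs 7.07, 7.07 and 7.19, a difference of 0.21 (SE 0.27) with overlap. The fibroblasts read 6.45 and 6.95 in KO and 6.54 and 6.62 in WT.

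The other Slc25a37 probe sets did not follow this heart pattern. On 1438177_PM_x_at, the brightest of the 3, the KO hearts read 8.97, 9.10 and 9.06 and the WT hearts 8.89, 9.71 and 8.93, and the groups overlapped with a difference of -0.13 (SE 0.27). On 1447900_PM_x_at the KO hearts read 4.31, 5.44 and 5.96 and the WT hearts 5.32, 6.43 and 5.71, again with overlap, and the difference of -0.59 shrank to -0.12 without KO mouse 1602. The sources used here do not say which transcript forms the 3 probe sets read.

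**Figure D2:**
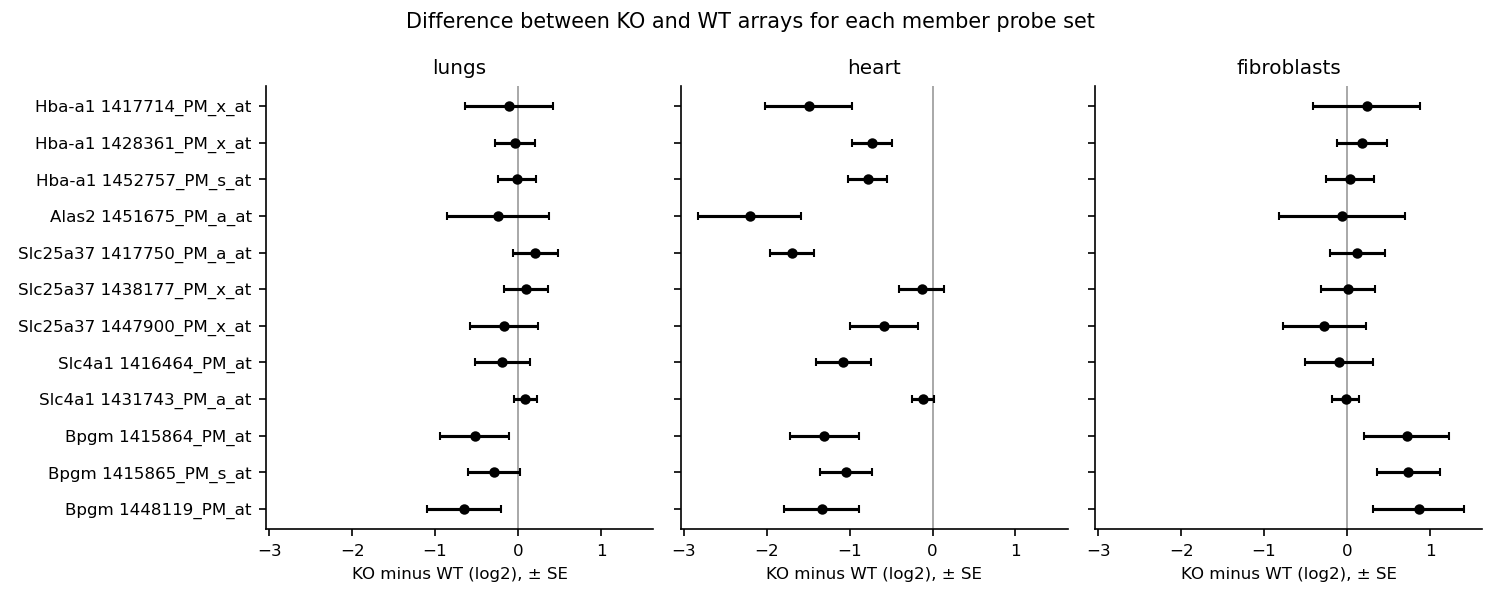
KO minus WT difference in log2 (horizontal axis) for each of the 12 member probe sets (vertical axis) in lungs, heart and fibroblasts; points are differences of group means and bars are ± SE from the fit over 16 arrays. In heart all 12 points lie below 0, from -2.20 for Alas2 to -0.11 for Slc4a1 1431743_PM_a_at, and in fibroblasts only the 3 Bpgm points lie beyond their SE above 0.

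Measured from the median heart difference of -0.16, the members' differences in heart were -2.05 for Alas2, -1.33, -0.57 and -0.63 for the 3 Hba-a1 probe sets, -0.92 for Slc4a1 1416464_PM_at and -1.54 for Slc25a37 1417750_PM_a_at. For Bpgm they were -1.15, -0.88 and -1.18. The 2 probe sets nearest 0, Slc25a37 1438177_PM_x_at and Slc4a1 1431743_PM_a_at, turned to 0.03 and 0.04. Quantile normalization moved the median heart difference to -0.02 and left Alas2 at -1.97, Slc25a37 1417750_PM_a_at at -1.41 and Hba-a1 1417714_PM_x_at at -1.42. Without the KO heart of mouse 1602 the differences were -2.05 for Alas2, -1.46 for Slc25a37 1417750_PM_a_at, -1.41 for Hba-a1 1417714_PM_x_at, -1.24 for Slc4a1 1416464_PM_at and -0.88 for Bpgm 1415865_PM_s_at.

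The arrays were also fitted with limma in 1 model of 6 group means, and probe sets with an adjusted p under 0.05 (Benjamini-Hochberg over all probe sets kept in a comparison) were called. For KO against WT, 7 of 23218 probe sets (0.0301%) were called in lungs, 28 of 22098 (0.127%) in heart and 12 of 21841 (0.0549%) in fibroblasts. Of the member probe sets, 10, 11 and 7 passed the filter in these tissues and 0, 1 and 0 were called, the 1 being Slc25a37 1417750_PM_a_at in heart. That call was made under 7 of 12 alternatives. Since these contrasts chose the members, nothing is read from the member counts. In limma's test of the difference between the lungs and heart effects, 0 of 24947 probe sets (0%) were called, with 1802 at an unadjusted p under 0.05, and 0 of 11 member probe sets. The lungs effect minus the heart effect was 1.96 (SE 0.87) for Alas2 and 1.90 (SE 0.38) for Slc25a37 1417750_PM_a_at.

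Lungs and heart of 1 animal can be set side by side, since both organs came from the same 6 mice. Alas2 in WT mouse 1592 read 4.25 in lungs and 7.54 in heart, the lowest lungs and the highest heart of all 6 mice. In KO mouse 1602 it went the other way, from 6.33 in lungs to 4.44 in heart. The order of the mice in lungs was thus not their order in heart. Heart minus lungs ran from -1.90 to 0.52 in KO mice, with 1 of 3 above 0, and from 0.39 to 3.29 in WT mice, with 3 of 3 above 0. For Hba-a1 1417714_PM_x_at it ran from -1.24 to 0.68 in KO and from -0.02 to 2.90 in WT.

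Slc25a37 1417750_PM_a_at gave another order than the globin gene in the organ pairs. Its heart level was below its lungs level in all 3 KO mice, by -2.43 to -1.35, while in WT mice heart minus lungs ran from -0.35 to 0.55. On 1438177_PM_x_at heart was above lungs in all 6 mice, from 0.24 to 0.69 in KO and from 0.27 to 0.97 in WT.

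With the mean of both organs taken per mouse, Alas2 lay between 4.65 and 5.38 in KO mice and between 5.62 and 7.21 in WT mice, a difference of -1.22 (SE 0.40). Bpgm 1415865_PM_s_at lay between 6.63 and 6.82 in KO and between 7.08 and 7.62 in WT, a difference of -0.66 (SE 0.15). Hba-a1 1417714_PM_x_at overlapped, at 8.40 to 9.15 in KO and 9.10 to 10.24 in WT, with a difference of -0.80 (SE 0.31). The other Hba-a1 probe sets did not overlap, with 1428361_PM_x_at at 13.08 to 13.37 against 13.43 to 13.85 and 1452757_PM_s_at touching at 13.00. In all, 7 of 10 kept member probe sets had every KO mouse below every WT mouse, beside 17.2% of all 20369 kept probe sets, and nothing is read from that count since the same arrays chose the members. In limma's fit on mice, 2 of 20369 probe sets (0.00982%) were called, and 0 of 10 member probe sets.

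**Figure D3:**
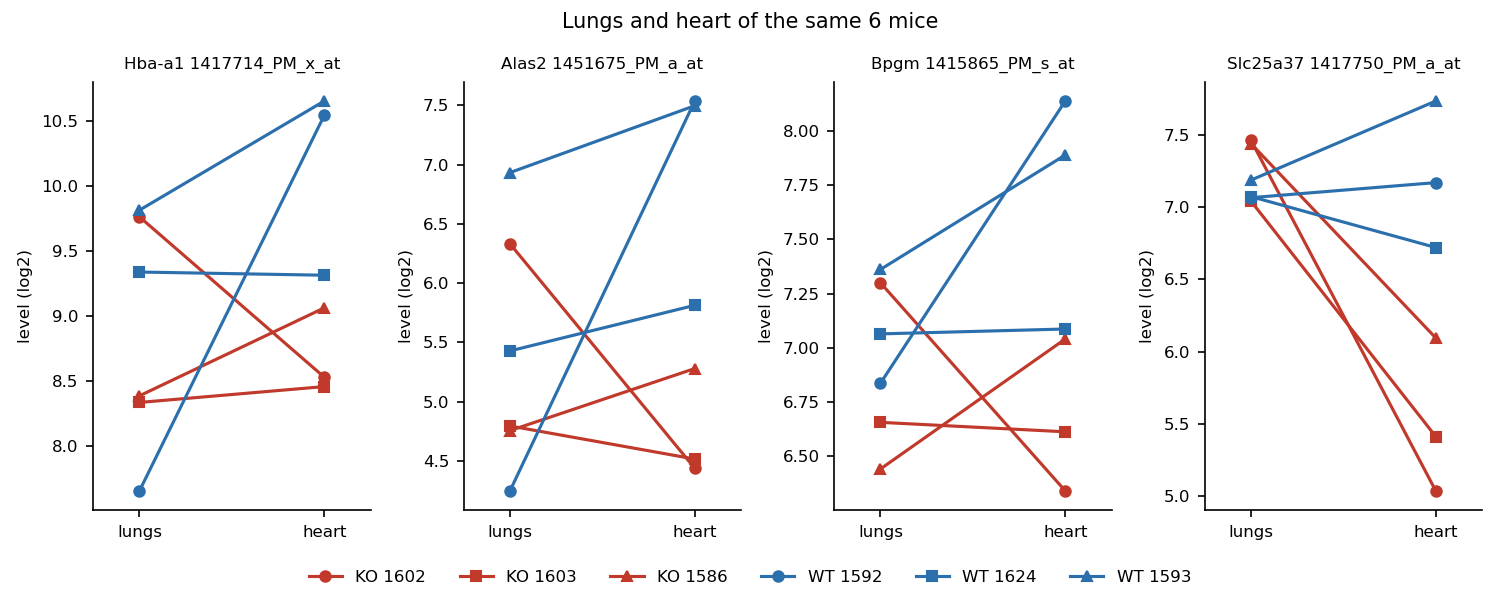
Log2 level in lungs and heart (horizontal axis) of each of 6 mice for Hba-a1, Alas2, Bpgm and Slc25a37, 1 probe set each; a line joins the organs of 1 mouse, red for KO and blue for WT, and each panel has its own vertical scale. Lines cross for Hba-a1 and Alas2, with WT mouse 1592 going from 4.25 to 7.54 for Alas2, while all 3 KO lines point down for Slc25a37.

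Alas2, Hba-a1 and Bpgm varied together over the 12 lungs and heart arrays. Each value was set against its tissue mean, and the correlations that follow are descriptions over 12 arrays that share mice, genotype and array-wide shifts. Alas2 correlated with Hba-a1 1428361_PM_x_at at r = 0.984, with 0.967 over the 6 lungs and 0.995 over the 6 hearts. Because the KO and WT lungs overlap, the relation in lungs did not follow genotype. Alas2 correlated with Bpgm 1415865_PM_s_at at 0.934 and with Slc4a1 1416464_PM_at at 0.820. Slc25a37 1417750_PM_a_at followed Alas2 in the hearts (r = 0.956) but much less in the lungs (r = 0.319). Slc25a37 1438177_PM_x_at ran against Alas2, at -0.475.

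**Figure D4:**
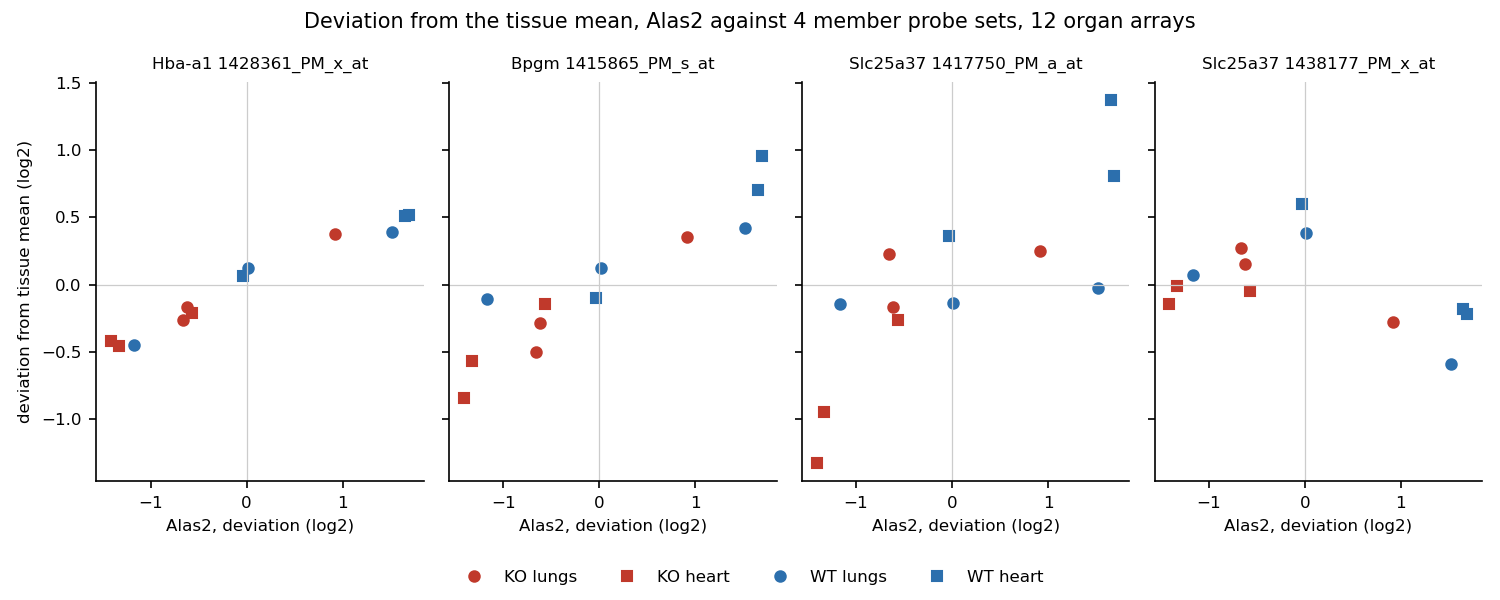
Deviation of each array from its tissue mean in log2, for Alas2 (horizontal axis) against Hba-a1, Bpgm and both brighter Slc25a37 probe sets (vertical axis), with lungs as circles, hearts as squares, KO in red and WT in blue (12 arrays). Hba-a1 lies along 1 line for both organs (r = 0.984), and Slc25a37 1417750_PM_a_at follows Alas2 in hearts and stays flat in lungs.

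Over 11304 genes, the 5 most like Alas2 in this deviation were Hba-a1, Hbb-b2 (r = 0.960), Bpgm, Sema6d (0.932) and Pip5k1c (0.932). A deviation from the tissue mean keeps the genotype differences that chose the members, so nothing is read from members ranking near each other. Hbb-b2, an adult beta globin gene, entered with its brightest probe set, 1417184_PM_s_at. For Hba-a1 they were Alas2, Hbb-b2 (0.977), Pip5k1c (0.944), Nkd1 (0.922) and Smarca2 (0.916). For Bpgm they were Dlg5 (0.948), Icam1 (0.943), Cdr2 (0.937), Alas2 and Fam172a (0.920). The genes nearest to Slc4a1 (Wwc1 at 0.901, Bcr, Parp8, Cers6 and Itgb2) and to Slc25a37 1438177_PM_x_at (Tnpo3 at 0.894, Fbh1, Entpd4, 1700030K09Rik and Gpam) held no globin gene.

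The other genes of the pathway were taken as lists. In 7 lists of globin, heme synthesis, red cell membrane, red cell enzyme, erythroid regulator, erythroblast and reticulocyte, and iron genes, 80 measured genes were not members. With limma and the same adjustment, 0 of 57 kept genes were called in lungs (0 at an unadjusted p under 0.05), 0 of 57 in heart (7) and 0 of 50 in fibroblasts (2). Over all kept probe sets, an unadjusted limma p under 0.05 was met by 1617 of 23218 in lungs and 3746 of 22098 in heart. In fibroblasts it was met by 727 of 21841. In heart 38 of the 57 lay below 0 and 19 above, with a median of -0.07, beside -0.16 over all kept probe sets. For the difference between the organs' effects, 0 of 59 were called (3 at an unadjusted p under 0.05), and for the mouse means 0 of 55 (5). Over all kept probe sets these unadjusted limma counts were 1802 of 24947 and 2955 of 20369.

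Hbb-b2, an adult beta globin gene, passed the filter. Its probe set 1417184_PM_s_at read 12.35, 12.15 and 12.50 log2 in KO hearts of mice 1602, 1603 and 1586 and 13.15, 12.63 and 13.29 in WT hearts of mice 1592, 1624 and 1593, a difference of -0.69 (SE 0.26, limma adjusted p = 0.211). On this probe set every KO heart lay below every WT heart, as on 13.7% of all kept heart probe sets. A second kept probe set, 1427865_PM_at, went the other way near the bottom of the scale, with KO hearts at 5.13, 4.66 and 4.82 above WT hearts at 4.25, 4.55 and 3.98, a difference of 0.61 (SE 0.25, limma adjusted p = 0.234). In lungs the brighter probe set differed by 0.11 (SE 0.26) and the dimmer by 0.44 (SE 0.25). The embryonic globins Hba-x, Hbb-y and Hbb-bh1 did not pass the filter.

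The other genes of heme synthesis lay on both sides of 0. Of the 12 kept in heart, 7 were higher and 5 lower in KO, with a median of 0.04. Alas1, the form of the first enzyme used outside red cells, read 10.20, 9.93 and 10.35 in KO hearts of mice 1602, 1603 and 1586 and 10.07, 10.09 and 9.20 in WT hearts of mice 1592, 1624 and 1593, a difference of 0.38 (SE 0.21) that became 0.08 without WT mouse 1593. Fech, which puts iron into the ring, differed by -0.05 (SE 0.12), Alad by 0.27 (SE 0.24) and Urod by 0.03 (SE 0.13). The membrane list gave 3 higher and 4 lower of 7 kept genes, with Ank1, the ankyrin gene, at 0.08 (SE 0.23). Add2, an adducin, was at 0.79 (SE 0.34), a value carried by KO mouse 1602 at 5.43 against 3.38 to 3.71 in the other hearts.

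The furthest non-member genes in heart were Trf, Mkrn1, Tal1 and Car2, and none passed the test. Trf, the gene of the iron carrier transferrin, read 5.84, 7.36 and 6.31 in KO hearts and 8.09, 7.46 and 7.62 in WT hearts, a difference of -1.22 (SE 0.32, limma adjusted p = 0.117). Mkrn1, which encodes a ubiquitin ligase abundant in late red cell precursors, read 4.51, 5.47 and 5.51 in KO and 6.56, 5.67 and 6.28 in WT, a difference of -1.01 (SE 0.25, limma adjusted p = 0.108). In both genes the highest KO heart lay just under the lowest WT heart. Such non-overlap, with every KO array lower, was seen on 13.7% of all kept heart probe sets. Without the KO heart of mouse 1603 both were called by limma, at -1.65 for Trf and -1.16 for Mkrn1. Among fits without 1 array each, that fit also called the most heart probe sets of all, so nothing is read from these calls. Without the KO heart of mouse 1602 the differences shrank to -0.89 for Trf and -0.68 for Mkrn1. The list of iron genes gave 6 higher and 12 lower of 18 kept genes, with a median of -0.07. Tal1, a regulator of blood and vessel cells, differed by -0.81 (SE 0.26), or -0.53 without KO mouse 1602, and 8 of 9 kept erythroid regulators lay below 0, with a median of -0.17. Car2, a carbonic anhydrase, differed by -0.80 (SE 0.32), or -0.38 without that mouse, with 4 of 5 kept red cell enzyme genes below 0 and a median of -0.15. Beside these lists, 72.2% of all kept heart probe sets lay below 0, with a median of -0.16, so nothing is read from the list counts.

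**Figure D5:**
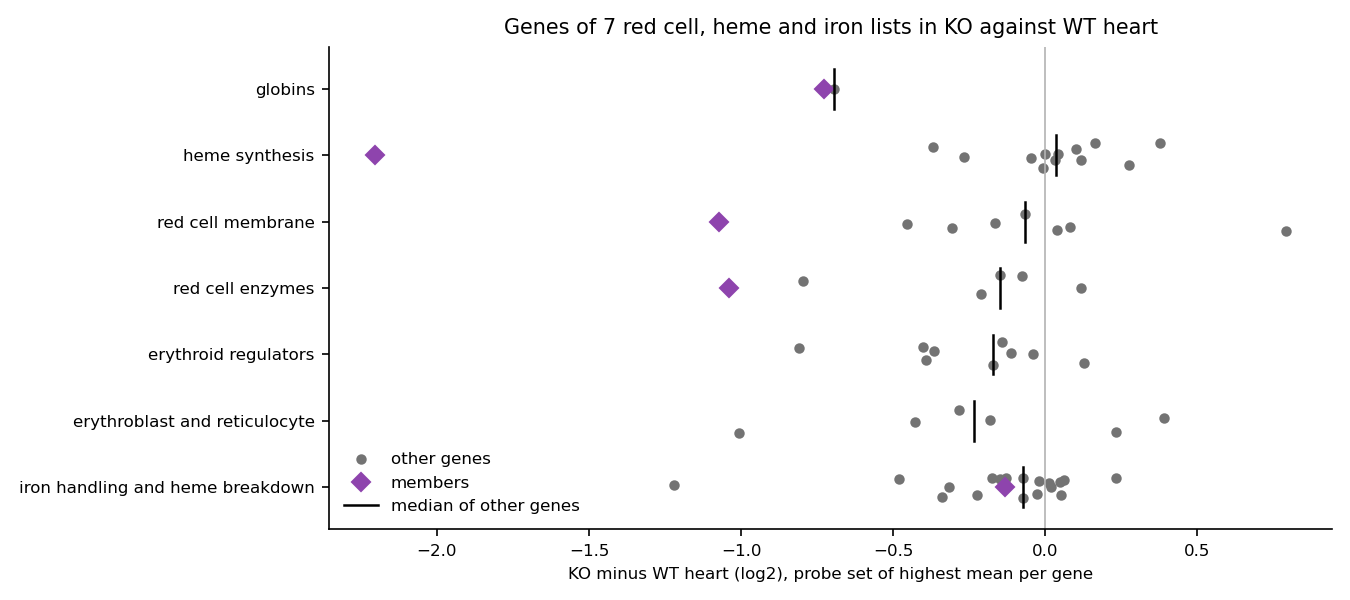
KO minus WT heart difference in log2 (horizontal axis) for kept genes of 7 lists (vertical axis), using each gene's probe set of highest mean; diamonds are members, grey points other genes, and black lines the median of the other genes. Alas2, Slc4a1 and Bpgm lie left of the other genes of their lists at -2.20, -1.07 and -1.04, and Slc25a37, shown by 1438177_PM_x_at, lies at -0.13 among its list.

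The lists of red cell precursor genes held some with and some without signal. Of 14 measured erythroid regulators 9 were kept in heart. Among the genes of all 7 lists that did not pass the filter in any tissue comparison were Gata1, Epb42, Rhag, Kel, Hemgn and Trim10. Klf1, the activator of adult beta globin, read 3.14 to 3.82 over all arrays. Of the 9 measured erythroblast and reticulocyte genes 6 were kept in heart, 2 higher and 4 lower in KO, with a median of -0.23.

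Markers of other cell types also varied among the hearts. The mean over 6 measured atrial muscle markers was 5.31, 9.77 and 5.97 in KO hearts of mice 1602, 1603 and 1586, against 10.10, 9.02 and 10.42 in WT hearts of mice 1592, 1624 and 1593. All 6 were kept and lower in KO, with a median of -2.62. The heart of KO mouse 1603 had atrial markers at 9.77, within the WT range, and Alas2 at 4.52, below all WT hearts. In KO mice 1602 and 1586 both the atrial markers and Alas2 lay below all WT hearts. Of 10 endothelium markers, 9 were lower in KO hearts, with a mean of 7.21 to 7.93 in KO and 7.85 to 7.95 in WT, and of 9 kept macrophage markers all 9 were lower, at 5.86 to 6.43 and 6.43 to 6.60. Fibroblast markers were lower for 5 of 5 kept genes, at 5.30 to 5.96 in KO and 6.14 to 6.72 in WT hearts. Of all kept heart probe sets, 72.2% were lower in KO. Heart muscle markers averaged 13.66 to 13.67 in KO and 13.62 to 13.66 in WT, and adipocyte markers overlapped at 5.68 to 5.99 and 5.75 to 6.83. Lungs markers averaged 3.42, 4.96 and 5.03 in KO hearts of mice 1602, 1603 and 1586 and 3.61 to 3.70 in WT hearts. Over the 11 marker lists, limma called 0 of 54 kept genes in heart (10 at an unadjusted p under 0.05) and 0 of 68 in lungs (6). Over all kept probe sets the unadjusted limma counts were 3746 of 22098 in heart and 1617 of 23218 in lungs. The part of these cell types in the members' heart values was not tested.

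Blood cells other than red cells were read from their own lists. Of 10 measured platelet markers 6 were kept in heart, 5 lower and 1 higher in KO, with a mean of 4.01 to 4.32 in KO and 4.32 to 4.67 in WT. Ppbp, a platelet chemokine gene, read 4.13, 4.56 and 4.77 in KO hearts and 6.60, 6.19 and 5.43 in WT hearts, with no overlap and a difference of -1.59 (SE 0.54, limma adjusted p = 0.184). It was named after its values were seen, and 13.7% of all kept heart probe sets had every KO array below every WT array. Of 12 neutrophil markers 4 were kept, and all 4 were higher in KO, with a mean of 3.54 to 4.01 in KO and 3.39 to 3.75 in WT. S100a9, a neutrophil protein gene, read 6.97, 4.72 and 7.56 in KO hearts and 6.06, 4.18 and 5.01 in WT hearts. The other 3 kept neutrophil genes, S100a8, Csf3r and Lcn2, lay between 0.04 and 0.13, and no kept gene of either list was called by limma (1 platelet and 0 neutrophil genes at an unadjusted p under 0.05). T and NK cell markers averaged 3.29 to 3.33 in KO and 3.29 to 3.31 in WT hearts, the bottom of the scale, and B cell markers 3.14 to 3.39 and 3.23 to 3.41.

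Markers of other tissues also varied among the lungs. The 3 lungs with the lowest Alas2 and Hba-a1, KO mice 1603 and 1586 and WT mouse 1592, were those with adipocyte markers at a mean of 8.72, 9.18 and 7.24, against 3.89, 4.26 and 4.09 in the other lungs. The same 3 lungs had heart muscle markers at 8.62, 7.89 and 8.35, against 5.04, 7.16 and 7.06. The part of this tissue in the lungs values was not tested.

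The members were compared between tissues in WT mice as well. The order was WT heart above WT lungs above fibroblasts for Alas2, at 6.95, 5.54 and 3.13, but the heart and lungs arrays overlapped. WT heart exceeded WT fibroblasts by 3.81 (SE 0.69) for Alas2 and by 10.05 (SE 0.27) for Hba-a1 1428361_PM_x_at, and WT lungs by 2.40 (SE 0.69) and 9.69 (SE 0.27). Fibroblasts lay at or near the bottom of the scale for both genes, so these differences depend on where that bottom lies. Bpgm and Slc25a37 had signal in fibroblasts. WT lungs minus WT fibroblasts was 0.08 (SE 0.47), 0.56 (SE 0.35) and -0.32 (SE 0.50) for Bpgm on 1415864_PM_at, 1415865_PM_s_at and 1448119_PM_at, so its probe sets did not give 1 direction. For Slc25a37 it was 0.53 (SE 0.30), 0.92 (SE 0.30) and 0.12 (SE 0.46) on 1417750_PM_a_at, 1438177_PM_x_at and 1447900_PM_x_at.

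In these tissue comparisons most probe sets were called, 60.2% of 24947 for WT lungs against WT heart, 60.1% of 25384 for WT lungs against WT fibroblasts and 63.8% of 24631 for WT heart against WT fibroblasts. Of the member probe sets, 4 of 11, 5 of 10 and 8 of 11 were called, counts from which nothing is read. Among the other genes of the 7 lists, 41 of 59 were called between WT lungs and WT heart, 16 higher and 25 lower in lungs. The heme synthesis list, which holds enzymes and mitochondrial carriers, made up 9 of the 41, 8 of them lower in lungs, with Fech at -1.94, Uros at -1.89 and Urod at -1.45, whereas Alas1 was 1.30 higher in lungs. Against fibroblasts 31 of 57 were called for lungs and 41 of 57 for heart, among them Hmox1, the heme-degrading enzyme, which differed by -3.80 in lungs and -4.66 in heart, and Lmo2, a partner of Tal1, which differed by 5.98 and 5.72.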

How the data were processed

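The log2 signals of 45141 entries on 16 arrays were used as deposited by the authors, without further normalization. Partek 6.4 is named in the submitters' processing notes, and the sources used here do not give the background correction, probe summary or normalization. The 104 control entries were set aside. Per the labels, 6 ug of total RNA from a Trizol extract was labelled per array. The number of arrays limits the precision. Samples of a group carry separate mouse numbers. In the fit over 16 arrays, p-values rest on a spread within groups that was pooled over all groups and moderated by limma. They do not measure the spread of the compared samples alone. The SE of a probe set was thus the same in lungs and heart, as for Alas2 at 0.62 in both. The pooled spread also includes lungs and heart of the same mice.

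Group means were fitted to all 16 arrays with limma 3.58.1 in R 4.3.3, and the fit was tested on simulated data. A comparison used the probe sets whose mean in a compared tissue exceeded 3.79, the median of all values. Its two-sided p-values were adjusted over those probe sets (Benjamini-Hochberg). Lists used the probe set of highest mean per gene. Named were all member probe sets, list genes that were called or bright, the 5 genes most like each member, Myo1c, and 3 tissue markers. Ppbp, the kept neutrophil genes, Trf, Mkrn1, Tal1, Car2, Add2 and the precursor genes under the filter value were named after their values were seen. The members and the 18 lists were chosen with earlier results of these data known.

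Lungs and heart share mouse numbers and come from the same animal. The deviations of a mouse's lungs and heart from their group means correlated at 0.0597 to 0.128, highest with the own heart for 4 of 6 mice, and the mouse as a random block had a consensus correlation of 0.0542. Alternatives were quantile normalization, other filters, separate tissues, a variance trend, the mouse block and leaving out each array. Promoters were read from RefSeq's GRCm38.p6 table, and 250 bases before the start were searched on both strands.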

Additional observations from a re-analysis of the deposited data

Results flagged for a closer look

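Bpgm differed in opposite directions in heart and fibroblasts, with no overlap between KO and WT arrays in either tissue. The KO minus WT differences were -1.30, -1.04 and -1.34 log2 in heart and 0.72, 0.74 and 0.87 in fibroblasts on 1415864_PM_at, 1415865_PM_s_at and 1448119_PM_at. With 1 fibroblast array left out at a time the fibroblast differences ran from 0.35 to 1.09, from 0.34 to 1.14 and from 0.54 to 1.19. In fibroblasts 19.5% of all kept probe sets had both KO arrays above both WT arrays. In heart 13.7% had every KO array below every WT array. Some margins were narrow. In fibroblasts the nearest KO and WT arrays read 6.26 and 6.24 on 1415864_PM_at, and 6.86 and 6.80 on 1415865_PM_s_at. In heart they read 7.04 and 7.09 on 1415865_PM_s_at. Nothing is read from the non-overlap alone. The 3 probe sets read the same gene and the fibroblasts came from other mice than the hearts. The difference between these tissues was not tested.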

How the results depend on the processing

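The count of non-member list genes called between KO and WT was 0 in lungs, in fibroblasts, for the difference of effects and for mouse means under every alternative run. In heart it was 0 except for 2 without the KO heart of mouse 1603, so leaving out arrays gave 0 to 2. For WT lungs against WT heart the count of 41 became 42 with the mouse as a random replicate block and 39 as a fixed block. Leaving out arrays gave 35 to 40 there, 27 to 29 against fibroblasts for lungs (31 with all arrays) and 34 to 40 for heart (41). The block changed no other call of these counts. The background count of 28 probe sets in heart was 10 with no filter, 2 with the heart arrays fitted alone and 3 to 1054 without 1 array each, the highest without KO mouse 1603; in lungs the 7 became 4, 1 and 0 to 62, and in fibroblasts the 12 became 5 with the filter at the 60th percentile, 0 with that tissue alone and 12 to 92 without 1 array each. Of 144 heart and 144 lungs values of member probe sets under alternatives, 143 and 124 kept their sign. Alas2 in heart stayed between -2.77 and -1.91 over left-out arrays, and in lungs it ran from -0.89 to 0.46, the highest without WT mouse 1593. Slc25a37 1417750_PM_a_at was called in 3 of 6 fits without 1 heart array each, and not without KO mouse 1602, WT mouse 1592 or WT mouse 1593. It was also not called with no filter or with the heart arrays fitted alone. Members near the filter value, such as Slc4a1, are limited by signal over background.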
